A study of Mus musculus with 15 samples.

Results

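The livers of pregnant mice carrying a virus that makes hepatocytes express p21 were compared with those of pregnant mice carrying the empty virus, late in gestation. The comparison used the 3 AAV8-p21 and the 3 AAV8-null libraries of 16 dpc (days post-coitum), 6 of the 15 RNA-seq samples, chosen by their columns in the count table. All mice were wild-type (WT) C57BL/6 females, which the study's methods give as C57BL/6N, used as young adult virgins. AAV8-p21 carries mouse p21 cDNA behind the TBG promoter, which is active in hepatocytes, and AAV8-null is an AAV8 vector with that promoter and no insert. The virus was injected into a tail vein before mating, so the livers had carried it through the whole of pregnancy when they were taken at 16 dpc. The other 9 libraries, AAV8-null livers of non-pregnant (NP) mice and AAV8-null and AAV8-p21 livers of 8 dpc, entered the same model and give each gene's level at the other stages. The question was which genes differ in the maternal liver of late pregnancy when hepatocytes had been given a virus meant to hold back their proliferation.

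p21, the product of Cdkn1a, binds complexes of cyclins and cyclin-dependent kinases and holds cells at the passage from G1 to S phase. D-type cyclins such as cyclin D1, the product of Ccnd1, drive that passage and are among the partners p21 binds. The liver of a pregnant mouse grows, and hepatocytes in it also change their handling of glucose, fat and plasma proteins as gestation goes on. The cDNA in the virus was amplified with the primers below, which are shown because they define which part of Cdkn1a both the mouse gene and the virus can contribute reads to. Capitals mark the start codon in the forward primer and the complement of the stop codon in the reverse primer.
Forward primer: accATGtccaatcctggtgatg
Reverse primer: TCAgggttttctcttgcagaag
From the start codon to the stop codon they span 480 bases, which are bases 105 to 584 of the 1913 bases of transcript Cdkn1a-201 (GENCODE M21) and 25.1% of it. In this stretch viral and endogenous reads enter the same count and cannot be told apart.

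The values are raw counts of reads per protein-coding gene. Totals lay between 13618701 and 17615185 in the 6 libraries and between 12280709 and 17615185 in all 15. Levels are given as CPM, the counts relative to the TMM-scaled library size. The albumin gene Alb took 23.5% to 27.8% of the counts in the AAV8-null and 20.5% to 22.2% in the AAV8-p21 livers of 16 dpc. AAV8-p21 liver 3 stood apart from AAV8-p21 livers 1 and 2, which lay close together. Over the 500 most variable genes the root mean square log2 difference of liver 3 was 1.19 to AAV8-null liver 3, against 2.04 and 1.74 to AAV8-p21 livers 1 and 2, which differed from each other by 0.766. The AAV8-null livers differed from each other by 1.52 to 1.58, and AAV8-null liver 1 differed from AAV8-p21 liver 2 by 1.53. Livers are numbered in the order of the table, and since the labels only call them separate samples of a group, p-values measure the spread between these samples.

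Cdkn1a (chr17:29090976-29100727 of GRCm38, plus strand) was at 64.4, 127 and 59.8 CPM in the AAV8-null livers 1, 2 and 3 and at 1664, 815 and 1093 CPM in the AAV8-p21 livers 1, 2 and 3. Every AAV8-p21 liver lay far above every AAV8-null liver, which fits the labels. The log2 fold change was 3.83 ± 0.71 (standard error, SE; n = 3 per group), with an adjusted p of 0.0619 in edgeR's quasi-likelihood test and an exact two-sided permutation p of 0.1, the smallest that 3 samples against 3 can give. With the DESeq2 Wald test on the 6 libraries alone its adjusted p was 2.25e-20. NP AAV8-null livers, with 3.29 to 33.7 CPM, lay below all AAV8-null livers of 16 dpc. The AAV8-p21 livers of 16 dpc also lay above those of 8 dpc, which had 347 to 648 CPM.

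Of the 12172 genes tested, 9 passed the test at 16 dpc (0.0739%), where passing means an adjusted p under 0.05 in edgeR's quasi-likelihood test together with an absolute log2 fold change over 1. Ccnd1 and Gm4756 rose and 7 genes fell. At an unadjusted p under 0.05, AAV8-p21 livers had 615 genes above (5.05%) and 574 below (4.72%) AAV8-null. The groups did not overlap for 810 genes with the higher values in AAV8-p21 livers (6.65%) and 854 with the lower values (7.02%). With the DESeq2 Wald test on the 6 libraries alone, 52 of 11391 genes were called higher (0.457%) and 70 lower (0.615%). Without AAV8-p21 liver 3, edgeR's test called 35 genes, and without AAV8-null liver 2, AAV8-p21 liver 1 or AAV8-p21 liver 2 it called 3 each time.

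**Figure D1:**
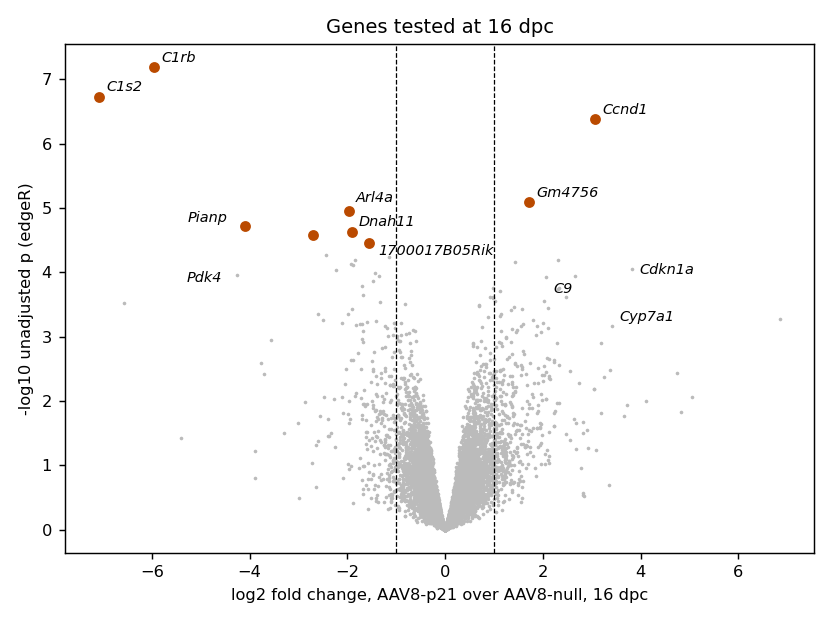
Each point is 1 of the 12172 genes tested at 16 dpc, with the log2 fold change of AAV8-p21 over AAV8-null livers on the x axis and the -log10 of the unadjusted p of edgeR's quasi-likelihood test on the y axis. The 9 large points passed the test, dashed lines stand at log2 fold changes of 1 and -1, and Cdkn1a lies among the small points at 3.83.

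Ccnd1, the gene of cyclin D1 (chr7:144929931-144939925, minus strand), was at 21.1, 21.7 and 26.3 CPM in the AAV8-null livers and at 163, 278 and 137 CPM in the AAV8-p21 livers of 16 dpc. The lowest AAV8-p21 liver was thus far above the highest AAV8-null liver. It rose by 3.06 ± 0.35 on the log2 scale (SE, n = 3 per group, adjusted p = 0.00168 in edgeR's quasi-likelihood test) and stayed past the threshold with any of the 6 libraries left out. In AAV8-null livers it lay at 56.1 to 111 CPM at NP and at 72.6 to 116 CPM at 8 dpc, so the AAV8-null livers of 16 dpc held the lowest levels of the series. At 8 dpc the AAV8-p21 livers were at 225, 417 and 398 CPM, also above all AAV8-null livers, with a log2 fold change of 1.87 ± 0.34 that did not pass (adjusted p = 0.122 in the same test). The change from 8 dpc to 16 dpc in the log2 fold change was 1.19, and its test in the same model gave an adjusted p of 1.

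Gm4756, a predicted gene (chr12:72576002-72649661, minus strand), was at 12.7, 8.16 and 8.99 CPM in the AAV8-null livers and at 37.5, 34.5 and 26.0 CPM in the AAV8-p21 livers of 16 dpc. The groups did not overlap, and the log2 fold change was 1.71 ± 0.25 (adjusted p = 0.0245 in edgeR's quasi-likelihood test). Like Ccnd1 it had its lowest levels in AAV8-null livers of 16 dpc, with 66.3 to 74.0 CPM at NP. The AAV8-p21 livers of 16 dpc therefore lay between the AAV8-null livers of 16 dpc and those of NP. At 8 dpc AAV8-p21 livers held 52.4 to 102 CPM and AAV8-null livers 62.7 to 84.3 CPM, which overlap. The call ended when AAV8-null liver 2 or 3 or AAV8-p21 liver 1 or 2 was left out (adjusted p 0.0730 to 0.168).

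**Figure D2:**
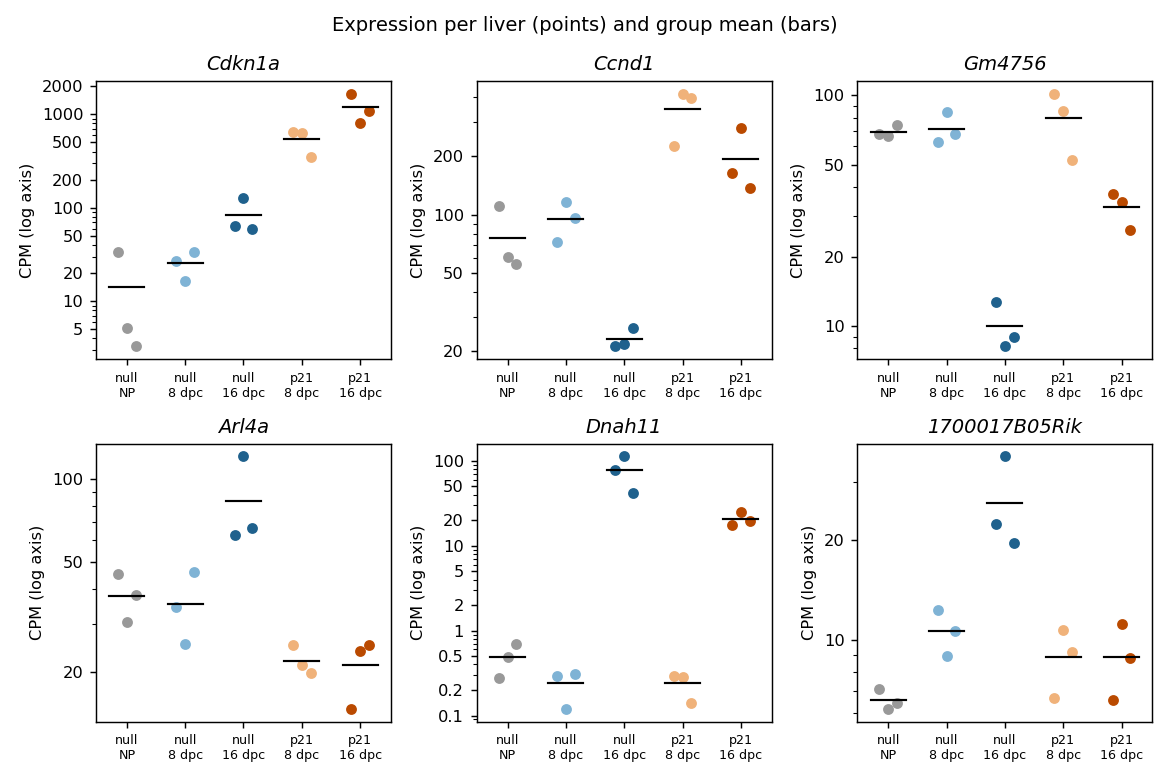
CPM of Cdkn1a and of 5 genes that passed the test at 16 dpc, on log axes, for each liver (points) with the group mean (bars) in the 5 groups of 3. Ccnd1 and Gm4756 are lowest in the AAV8-null livers of 16 dpc, while Arl4a, Dnah11 and 1700017B05Rik are highest there and the AAV8-p21 livers of 16 dpc lie below.

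C1rb, C1s2 and Pianp, which lie within 433 kb on chromosome 6, had almost no reads in any AAV8-p21 liver. C1rb and C1s2 encode second mouse copies of C1r and C1s, the proteases that start the classical complement pathway. Pianp encodes a membrane protein that binds an immune receptor and is known mostly from the nervous system.
C1rb (chr6:124570294-124581171, plus strand) had 98, 143 and 52 counts in AAV8-null livers and 2, 1 and 2 in AAV8-p21 livers of 16 dpc. Its ratio of AAV8-null to AAV8-p21 was 66.7 (95% exact interval 28.3 to 207, counting error only), and the fall passed edgeR's quasi-likelihood test with an adjusted p of 0.000781. C1s2 (chr6:124624625-124636085, minus strand) had 103, 263 and 38 counts against 1, 2 and 0, a ratio of 153 (52.1 to 747) with an adjusted p of 0.00112 in the same test. Neither call ended with any of the 6 libraries left out, though C1s2 missed it with edgeR on the 6 libraries alone (adjusted p = 0.0954).
Pianp (chr6:124996694-125003096, plus strand) had 8, 28 and 14 counts against 1 in each AAV8-p21 liver, a ratio of 19.0 (6.13 to 95.1) with an adjusted p of 0.0385 in edgeR's quasi-likelihood test. Its call ended without AAV8-null liver 2 or without any one of the 3 AAV8-p21 livers (adjusted p 0.0525 to 0.238).

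The same 3 genes were the only ones that passed at 8 dpc, in other mice with no control liver in common. There C1rb had 10 counts in the 3 AAV8-p21 livers together against 624 in the AAV8-null livers, a ratio of 61.1 (33.0 to 128). C1s2 had 3 against 1328 (ratio 433, interval 148 to 2103) and Pianp 12 against 136 (11.1, interval 6.15 to 22.0). The low level was thus present in all 6 AAV8-p21 livers of both stages and in none of the 9 AAV8-null livers, where C1rb had 52 to 235 counts. For these 3 genes the virus and a difference in genotype between the mice given each virus cannot be told apart, and the genotype at this place was not tested. The labels give 1 strain for all groups. Nnt, which is partly deleted in C57BL/6J and intact in C57BL/6N, had only 2 to 25 counts in all 15 libraries, with both viruses. Of 9 genes listed as differing between C57BL/6 substrains, 6 were tested. Of these, 3 lay above and 3 below AAV8-null at 16 dpc (median 0.18). A single gene was lower at an unadjusted p under 0.05, against 4.72% of all genes. This was Wdfy1, which had 159, 275 and 190 counts in AAV8-null and 61, 102 and 65 counts in AAV8-p21 livers of 16 dpc, without overlap (log2 fold change -1.64, adjusted p = 0.344 in edgeR's quasi-likelihood test). The DESeq2 Wald test on the 6 libraries called it lower at 16 dpc. At 8 dpc it had 126 to 494 counts in AAV8-null and 70 to 491 counts in AAV8-p21 livers, which overlap.
The genes between and beside them did not share this level. Of the 19 tested genes from the start of C1rb to the end of Pianp, the other 16 had log2 fold changes between -0.67 and 1.35 at 16 dpc, and 0 of them had an unadjusted p under 0.05 in edgeR's quasi-likelihood test. At 8 dpc their log2 fold changes ran from -2.92 to 1.1. C1ra and C1s1, the neighbouring copies of the same proteases, had log2 fold changes of 0.16 ± 0.19 and 0.42 ± 0.26 and did not pass. Reads shared between the copies were left out of the counts, which makes the levels of C1rb and C1s2 uncertain, and whether this affected the groups equally was not tested.

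**Figure D3:**
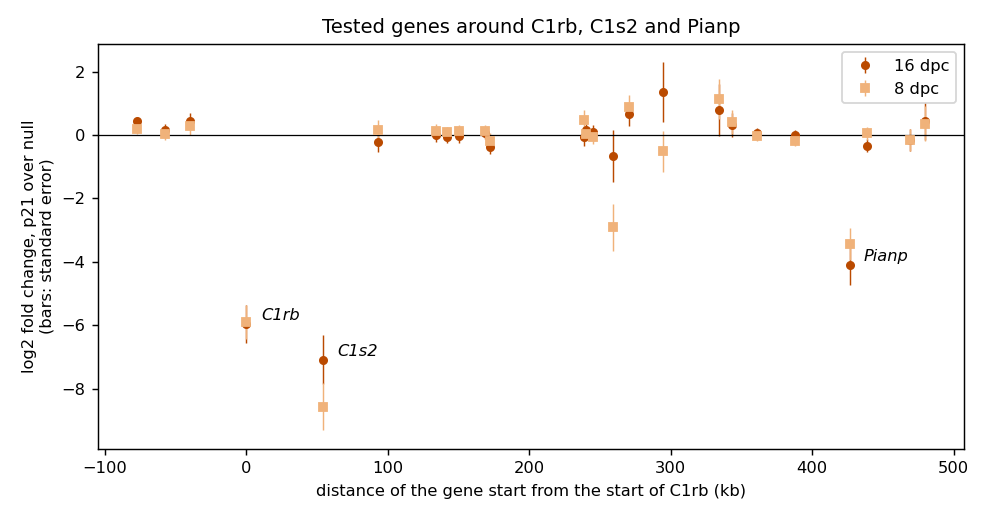
Log2 fold change of AAV8-p21 over AAV8-null with its standard error (bars) for each tested gene against the distance of its start from the start of C1rb in kb, at 16 dpc (circles) and 8 dpc (squares). C1rb, C1s2 and Pianp lie between -4.09 and -7.09 at 16 dpc, while the other genes between them lie between -0.67 and 1.35.

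Arl4a, Dnah11 and 1700017B05Rik also fell, and each was at its highest in AAV8-null livers of 16 dpc. Arl4a, a small GTP-binding protein of the ARF family (chr12:40005447-40038025, minus strand), was at 62.9, 121 and 66.6 CPM in the AAV8-null livers and at 14.7, 23.8 and 25.2 CPM in the AAV8-p21 livers. No values overlapped, and it fell by 1.97 on the log2 scale (SE 0.30, adjusted p = 0.0266 in edgeR's quasi-likelihood test). NP livers held 30.3 to 45.3 CPM, so the AAV8-p21 livers of 16 dpc were below these as well. The call of Arl4a ended without AAV8-null liver 2 or AAV8-p21 liver 1 or 2 (adjusted p 0.0867 to 0.238).
Dnah11, a dynein heavy chain of motile cilia (chr12:117877982-118199043, minus strand), was nearly silent at NP (0.277 to 0.699 CPM) and at 8 dpc with either virus (0.119 to 0.312 CPM). At 16 dpc it reached 78.3, 113 and 41.9 CPM in the AAV8-null livers and 17.7, 24.8 and 19.4 CPM in the AAV8-p21 livers. AAV8-p21 livers thus gained this late transcript too, to a level that fell short of AAV8-null livers by 1.91 on the log2 scale (SE 0.31, adjusted p = 0.0399 in edgeR's quasi-likelihood test).
1700017B05Rik (chr9:57253117-57262612, minus strand) was at 22.4, 36.0 and 19.7 CPM in AAV8-null and at 6.56, 11.1 and 8.81 CPM in the AAV8-p21 livers, and 6.15 to 7.06 CPM at NP. It fell by 1.56 on the log2 scale (SE 0.26, adjusted p = 0.0464 in edgeR's quasi-likelihood test). The calls of Dnah11 and 1700017B05Rik each held in 1 of 6 fits, that without AAV8-null liver 3 (adjusted p 0.0537 to 0.282 in the other 5 fits). The levels set at NP and at 16 dpc use the same AAV8-null livers of 16 dpc as the comparison of the viruses.

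Among the genes ranked next with groups that did not overlap, none of which passed the test, several had the same course over the stages. Slc16a1, a transporter of lactate, pyruvate and ketone bodies, was at 214, 149 and 190 CPM in the AAV8-null livers and at 53.2, 69.1 and 81.2 CPM in the AAV8-p21 livers of 16 dpc. Its AAV8-p21 livers lay near the NP level of 43.6 to 84.4 CPM (log2 fold change -1.44 ± 0.27, adjusted p = 0.0623 in edgeR's quasi-likelihood test).
Ccdc38, nearly silent at NP (0.0693 to 0.426 CPM), was at 24.4, 19.7 and 15.2 CPM in AAV8-null and at 6.13, 4.94 and 4.95 CPM in the AAV8-p21 livers of 16 dpc (log2 fold change -1.89 ± 0.35, adjusted p = 0.0579 in the same test). The centrosomal gene Tacc2, the kinase adaptor Tab2, the cytochrome oxidase assembly factor Sco2, the ubiquitin ligase Rnf144a and the Rab activator Denn2b had log2 fold changes from -2.44 for Rnf144a to -1.14 for Tab2, with adjusted p-values of 0.0579 to 0.0619. All 5 had their highest group mean in AAV8-null livers of 16 dpc.
On the other side C9, the pore-forming last component of complement, was at 15.1, 7.83 and 12.3 CPM in the AAV8-null livers of 16 dpc and at 37.6, 65.3 and 44.9 CPM in the AAV8-p21 livers (log2 fold change 2.07 ± 0.40, adjusted p = 0.0628 in the same test). At NP it was at 133 to 215 CPM, above both. The tetraspanin Tspan15, the kinesin Kif9, the D-aspartate oxidase Ddo, the kinase Wnk2 and the mitochondrial nucleotide kinase Nme4 had log2 fold changes from 0.99 for Ddo to 2.67 for Kif9, with adjusted p-values of 0.0579 to 0.0786. Of these, Kif9, Wnk2 and Nme4 were below 3 CPM in all 6 livers.

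Among the cell cycle genes tested at 16 dpc, Ccnd1 was the only one that passed. Of 16 tested D and E cyclins, their kinases, CDK inhibitors and pocket proteins, 11 lay above AAV8-null, 6 of them with an unadjusted p under 0.05, and 3 lay below at that level, against 5.05% higher and 4.72% lower of all genes. These numbers became 4 and 1 without AAV8-null liver 3, and also with the clock index described with the clock genes as a covariate. Cdkn1a, whose counts include reads from the virus, and Ccnd1 are on this list, among the 11 above and among the 6. Ccnd2, Ccnd3 and Ccne1, further G1 cyclins picked after their values were seen, had log2 fold changes of 0.76, 0.53 and 1.44, and Cdk6, a kinase partner of the D cyclins, had 0.92 (adjusted p 0.181 to 0.505 in edgeR's quasi-likelihood test). The CDK inhibitors Cdkn1b and Cdkn2c and the pocket protein Rb1, which hold cells in G1, lay at -0.68, -0.93 and -0.60 on the log2 fold change scale (adjusted p 0.282 to 0.472 in the same test). With 1 library left out, Cdkn1b ran from -0.84 to -0.39 and Ccnd2 from 0.48 to 0.99. With the clock index as a covariate Ccne1 was at 0.69. Cdkn2a and Cdkn2b had too few counts to be tested.
For Ccne1, AAV8-null livers held 1.25, 0.916 and 1.60 CPM and AAV8-p21 livers 3.41, 4.29 and 2.55 CPM, without overlap.

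Of 30 mitosis genes, 22 lay below and 8 above AAV8-null at 16 dpc, with 0 at an unadjusted p under 0.05 and a median log2 fold change of -0.64. This direction rested on AAV8-null liver 1: without it 23 of 30 lay above, with a median of 0.42, and with the clock index as a covariate 16 did. Without AAV8-p21 liver 3 the median was -0.19. The mitotic kinesin Kif20a was at 2.67, 0.667 and 0.623 CPM in AAV8-null and at 0.426, 0.727 and 0.364 CPM in the AAV8-p21 livers, which overlap. At 8 dpc the fitted log2 fold change of each of the 30 genes was below 0, 28 of them at an unadjusted p under 0.05 with a median of -2.65, where 2.5% of all genes were higher and 2.69% lower at that level. The list mean at 8 dpc, relative to AAV8-null livers of 16 dpc, was 3.05, 3.05 and 0.49 in AAV8-null livers 1, 2 and 3 and -0.17, 0.33 and 0.82 in the AAV8-p21 livers. AAV8-null liver 3 thus lay below AAV8-p21 liver 3, and the high levels were those of AAV8-null livers 1 and 2. Among 29 genes of G1/S and DNA replication, 15 lay above at 16 dpc, 1 higher and 2 lower at an unadjusted p under 0.05, near the 5.05% and 4.72% of all genes. Of the 30 tested when AAV8-p21 liver 3 was left out, 22 lay above, 3 higher and 1 lower. Without AAV8-p21 liver 1, 12 of 30 lay above, 0 higher and 1 lower. Of 23 tested p53 targets other than Cdkn1a, 7 lay above and 16 below (median -0.10), with 0 higher and 2 lower at that level. Without AAV8-null liver 1, 13 of 24 p53 targets then tested lay above, and without AAV8-p21 liver 2 0 were lower at that level.

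Among clock genes the groups of 16 dpc did not overlap for 5 of 12 genes of the repressor and D-box arm, all higher in AAV8-p21 livers, and for 3 of 6 activators and genes of the same phase, all lower, against 6.65% and 7.02% of all genes. The loop runs through ARNTL with CLOCK or NPAS2, which bind E-boxes and drive their own repressors, and through DBP, TEF and HLF, which bind D-boxes, so that liver transcripts of the 2 arms peak at opposite times of day. All 12 tested genes of the repressor and D-box arm lay above AAV8-null, 3 at an unadjusted p under 0.05 (median log2 fold change 0.95), and 5 of 6 activators and genes of their phase, a list that also holds Nfil3 and Cry1, lay below, 2 at that level (median -1.32), where 5.05% of all genes were higher and 4.72% lower. None passed edgeR's quasi-likelihood test. The number of the 12 at an unadjusted p under 0.05 was 7 without AAV8-null liver 2, 6 without AAV8-p21 liver 3, 2 without AAV8-null liver 1, AAV8-p21 liver 1 or AAV8-p21 liver 2, and 1 without AAV8-null liver 3.
Arntl was at 23.3, 10.2 and 19.8 CPM in the AAV8-null livers and at 0.511, 0.582 and 2.91 CPM in the AAV8-p21 livers (log2 fold change -3.70 ± 1.08, adjusted p = 0.244). Dbp was at 1.69, 11.4 and 1.33 CPM against 120, 81.0 and 51.8 CPM (log2 fold change 4.12 ± 1.39, adjusted p = 0.329). Neither gene's groups overlapped at 16 dpc. At NP the AAV8-null livers ran from 1.40 to 17.2 CPM for Arntl and from 5.68 to 86.3 CPM for Dbp.
The difference between the activators Arntl, Npas2 and Clock and 6 genes of the other arm, in mean log2 CPM, was -4.45, -4.33 and -2.58 in AAV8-p21 livers of 16 dpc and 1.82, -1.24 and 1.5 in their AAV8-null counterparts. At NP the 3 AAV8-null livers had 0.39, -3.97 and -4.05, and at 8 dpc the AAV8-p21 livers had 2.66, 2.27 and -2.88. NP livers 2 and 3 thus lay within the range of the AAV8-p21 livers of 16 dpc. No hour of sampling is given in the sources used here, and within these 6 livers the index and the virus cannot be told apart. With the index as a covariate in the model, 6 genes passed at 16 dpc, among them Ccnd1, C1rb, C1s2 and Gm4756 of those named above, while Arl4a (adjusted p = 0.124), Dnah11 (0.104), Pianp (0.130) and 1700017B05Rik (0.130) did not.

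The promoters of Ciart and Per3 are shown because they held the most E-boxes and D-boxes of the clock genes searched, motifs these factors are known to bind. Sequences are from RefSeq (GRCm38.p6), run from 250 bases before to 50 after the start of the gene on the minus strand, and carry in capitals the E-box CACGTG in Ciart (chr3:95882179-95882478) and the D-box TTATGTAA in Per3 (chr4:151044616-151044915), searched on both strands.
Ciart: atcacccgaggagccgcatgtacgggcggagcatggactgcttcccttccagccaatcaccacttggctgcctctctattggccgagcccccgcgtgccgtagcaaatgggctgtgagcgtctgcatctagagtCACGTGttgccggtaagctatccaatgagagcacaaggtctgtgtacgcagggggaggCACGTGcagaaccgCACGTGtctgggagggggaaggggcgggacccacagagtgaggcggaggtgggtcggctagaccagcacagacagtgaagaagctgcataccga
Per3: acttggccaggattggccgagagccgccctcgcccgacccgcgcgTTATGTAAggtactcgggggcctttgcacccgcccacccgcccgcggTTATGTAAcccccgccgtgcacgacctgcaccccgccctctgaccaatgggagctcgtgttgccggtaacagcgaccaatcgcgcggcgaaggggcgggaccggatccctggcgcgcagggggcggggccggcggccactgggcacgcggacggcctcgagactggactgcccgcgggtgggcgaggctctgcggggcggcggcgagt
Ciart holds 3 E-boxes and Per3 holds 2 D-boxes in this window. The E-box was found in 7.15% and the D-box in 0.938% of the 32851 promoters of the table, in which 15 of the 18 clock genes listed were found. Of the 10 found of the repressor and D-box arm, 4 held an E-box and Per3 alone held a D-box, and of the 5 found of the activators and genes of their phase, Cry1, itself a repressor of the loop, held an E-box and 0 held a D-box. Ciart was at 0, 1.25 and 0 CPM in the AAV8-null livers and at 4.43, 8.43 and 3.64 CPM in the AAV8-p21 livers (adjusted p = 0.390 in edgeR's quasi-likelihood test). Per3 was at 0.446, 10.7 and 1.25 CPM against 37.7, 24.9 and 11.1 CPM (adjusted p = 0.501). Neither gene's groups overlapped, and AAV8-null liver 2 held the highest level of its group for both.

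**Figure D4:**
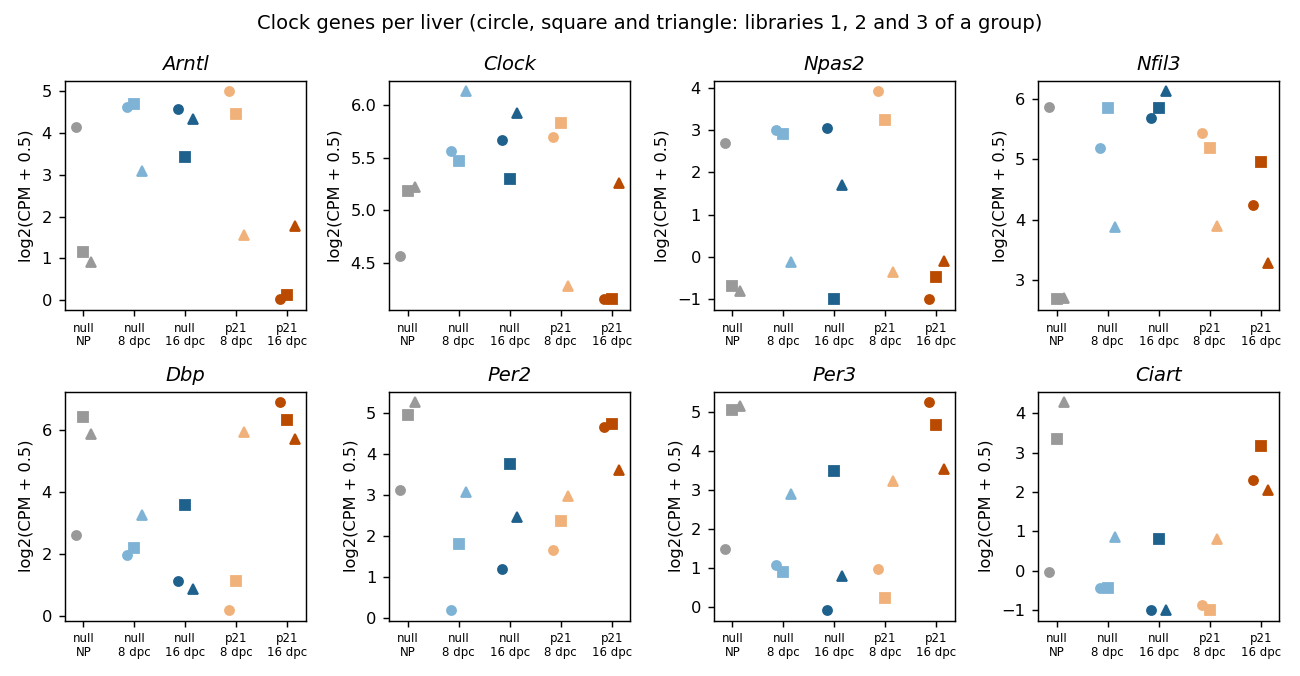
log2(CPM + 0.5) of 4 genes of the activator arm or its phase (upper row) and 4 of the repressor and D-box arm (lower row) in each liver of the 5 groups, with the 3 libraries of a group as circle, square and triangle. In AAV8-p21 livers of 16 dpc all 3 libraries of Arntl lie low and all 3 of Dbp lie high, and NP livers 2 and 3 lie within their range for both genes.

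Genes of fatty acid oxidation mostly lay below AAV8-null, most clearly in AAV8-p21 livers 1 and 2, and none passed. The list mean was -1.65, -1.07 and -0.28 in AAV8-p21 livers 1, 2 and 3 and -0.32, 0.46 and -0.14 in AAV8-null livers, so AAV8-p21 liver 3 overlapped with AAV8-null. PPAR-alpha is the nuclear receptor that switches these genes on when the liver burns fat. Of its 32 tested targets and oxidation genes, 31 lay below AAV8-null at 16 dpc and 11 had an unadjusted p under 0.05, against 4.72% of all genes, with a median log2 fold change of -0.66. Without AAV8-p21 liver 3, 21 reached that level with a median of -1.04. The number was 5 without AAV8-null liver 2, 4 without AAV8-p21 liver 1 and 7 without AAV8-p21 liver 2. With the clock index as a covariate it was 17, with a median of -1.09.
Pdk4, the kinase that shuts pyruvate dehydrogenase, was at 159, 1222 and 110 CPM in AAV8-null and at 22.4, 40.9 and 14.4 CPM in the AAV8-p21 livers (log2 fold change -4.26 ± 0.81, adjusted p = 0.0623 in edgeR's quasi-likelihood test). AAV8-null liver 2 stood far above the other 2, and without it the log2 fold change was -2.37. Plin5, a coat protein of lipid droplets, was at 165, 348 and 189 CPM against 35.7, 57.4 and 125 CPM (log2 fold change -1.68 ± 0.42, adjusted p = 0.147).
Acot1, an acyl-CoA thioesterase, and Cd36, a fatty acid transporter, had log2 fold changes of -1.84 ± 0.60 and -1.0 ± 0.33 without overlap (adjusted p = 0.311 for both). The DESeq2 Wald test on the 6 libraries called Acot1, Pdk4, Plin5 and Vnn1 of the 32 lower. Cyp4a10, a fatty acid hydroxylase picked after its values were seen, showed the place of AAV8-p21 liver 3, with 617 and 1339 CPM in the AAV8-p21 livers 1 and 2 and 4028 CPM in liver 3, beside 4314 to 5857 CPM in the AAV8-null livers.

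The genes of fat and cholesterol synthesis lay mostly the other way. Of 18 lipogenesis genes, 14 lay above AAV8-null, 4 higher and 2 lower at an unadjusted p under 0.05, against 5.05% higher and 4.72% lower of all genes (median 0.62), and the number higher turned on single livers. It was 10 without AAV8-p21 liver 3, 8 without AAV8-null liver 2, 2 without AAV8-p21 liver 2 and 1 without AAV8-null liver 3 or AAV8-p21 liver 1. The median ran from 0.29 without AAV8-p21 liver 1 to 1.0 without AAV8-null liver 2, and with the clock index as a covariate it was 0.26, with 1 higher. Elovl6, an elongase of fatty acids, was at 12.3, 43.4 and 18.6 CPM in AAV8-null and at 130, 145 and 43.5 CPM in the AAV8-p21 livers. AAV8-p21 liver 3 met the highest AAV8-null liver (log2 fold change 2.1 ± 0.45, adjusted p = 0.101 in edgeR's quasi-likelihood test).
Insig2, which holds SREBP proteins in the endoplasmic reticulum, went against its list, with 518, 1031 and 571 CPM in AAV8-null and 45.4, 94.2 and 378 CPM in the AAV8-p21 livers (log2 fold change -2.03 ± 0.58, adjusted p = 0.232). With 1 library left out its log2 fold change ran from -3.34 to -1.58. Of 24 genes of cholesterol synthesis and uptake, 21 lay above, 2 at an unadjusted p under 0.05 (median 0.65), a share near that of all genes. The median ran from 0.22 without AAV8-p21 liver 1 to 1.52 without AAV8-null liver 2, where 12 reached that level. It was reached by 6 without AAV8-p21 liver 3 and by 0 without AAV8-null liver 1, AAV8-null liver 3 or AAV8-p21 liver 1.
Cyp7a1, the first and rate-limiting enzyme of bile acid synthesis from cholesterol, was at 32.2, 5.75 and 7.65 CPM in AAV8-null and at 252, 187 and 45.2 CPM in the AAV8-p21 livers. The groups did not overlap (log2 fold change 3.41 ± 0.79, adjusted p = 0.122). Of the 21 tested genes of bile acid synthesis and transport, Cyp7a1 alone had an unadjusted p under 0.05, a share near that of all genes, and 13 lay above (median 0.25). Without AAV8-p21 liver 3, 3 were higher and 2 lower at that level with a median of 0.07. The number higher was 3 without AAV8-null liver 1, and 2 without AAV8-null liver 3 or AAV8-p21 liver 1, where the medians were -0.02, with 10 above, and 0.03.

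**Figure D5:**
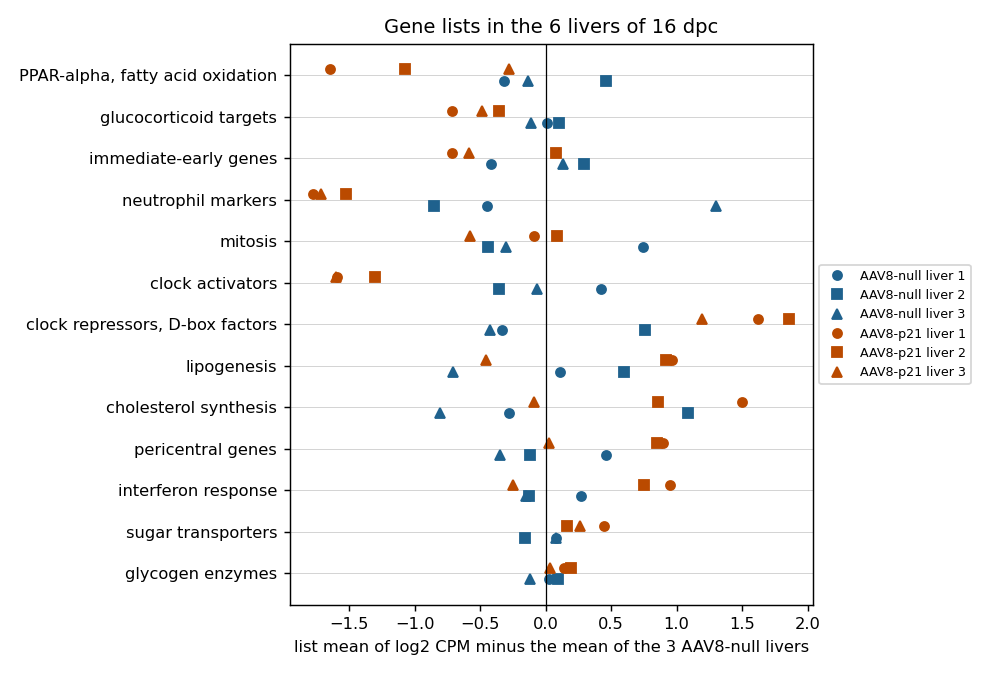
Mean log2 CPM of each gene list in each of the 6 livers of 16 dpc, minus the mean of the 3 AAV8-null livers, with 1 symbol per liver. AAV8-p21 liver 3 lies beside the AAV8-null livers for fatty acid oxidation, lipogenesis, cholesterol synthesis and interferon response, and with its own group for the clock, glucocorticoid and neutrophil lists.

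For glucose, the study's own interest in these livers, the sugar transporters and 4 genes it names were looked at in turn. Of 13 tested sugar transporters, 10 lay above AAV8-null, 4 higher and 1 lower at an unadjusted p under 0.05, against 5.05% higher and 4.72% lower of all genes (median 0.46). With 1 library left out, 15 or 16 transporters were tested, of which 4 were higher each time, and 1 was lower, or 2 without AAV8-null liver 2. Slc2a9, which carries urate and glucose, was at 19.4, 17.4 and 18.2 CPM in AAV8-null and at 35.5, 30.8 and 26.4 CPM in the AAV8-p21 livers (log2 fold change 0.75 ± 0.18, adjusted p = 0.124 in edgeR's quasi-likelihood test). Slc2a5, the fructose transporter, and Slc5a1, the sodium-coupled glucose transporter, had log2 fold changes of 1.57 and 1.90 at levels of at most 6.98 CPM (adjusted p = 0.232 for both).
Slc45a3 was 1 of 3 that lay below, with 99.0, 52.0 and 48.1 CPM in AAV8-null and 28.0, 17.7 and 26.5 CPM in the AAV8-p21 livers (log2 fold change -1.46 ± 0.38, adjusted p = 0.178). The DESeq2 Wald test on the 6 libraries called Slc45a3 lower. With the clock index as a covariate its log2 fold change was -0.55. The group means of the list at 8 dpc gave a median of -0.14, with 4 of 13 above.
Of 24 glycogen genes, 16 lay above (median 0.23), 3 higher and 1 lower at an unadjusted p under 0.05. The median was 0.08 without AAV8-null liver 3 and 0.14 without AAV8-p21 liver 2, and with the clock index as a covariate it was 0.12, with 1 higher and 2 lower. Among the higher ones, Phkb, a subunit of phosphorylase kinase, had a log2 fold change of 0.53 and Ugp2, which makes UDP-glucose, one of 0.51, both without overlap (adjusted p = 0.277 and 0.467 in edgeR's quasi-likelihood test). The lower one was Ppp1r3c, which brings protein phosphatase to glycogen, at 141, 3.0 and 44.1 CPM against 8.94, 5.60 and 17.4 CPM, which overlap. Of 28 genes of glycolysis and gluconeogenesis, 21 lay above with a median of 0.17 (17 and 0.06 without AAV8-p21 liver 3), and Pfkfb1 alone had an unadjusted p under 0.05, no larger a share than over all genes (log2 fold change 0.91 ± 0.26, adjusted p = 0.244).

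Glucocorticoid targets lay lower in all 3 AAV8-p21 livers. Of 20 tested genes, 17 lay below AAV8-null and 8 had an unadjusted p under 0.05, against 4.72% of all genes (median -0.51), and 5 did without AAV8-p21 liver 1, 2 or 3. The list mean lay at -0.71, -0.36 and -0.49 in AAV8-p21 livers 1, 2 and 3 and between -0.11 and 0.10 in AAV8-null livers, on the log2 scale relative to the mean of the AAV8-null livers. Sgk1, the serum and glucocorticoid regulated kinase, was at 168, 214 and 263 CPM in AAV8-null and at 33.0, 82.3 and 47.6 CPM in the AAV8-p21 livers, which do not overlap (log2 fold change -1.99 ± 0.44, adjusted p = 0.112 in edgeR's quasi-likelihood test). Igfbp1, a binding protein of insulin-like growth factors that insulin holds down, was at 981, 1499 and 1935 CPM against 363, 643 and 345 CPM (-1.71 ± 0.42, adjusted p = 0.145). The DESeq2 Wald test on the 6 libraries called Igfbp1, Mt2 and Sgk1 of this list lower.
H6pd, which supplies NADPH in the endoplasmic reticulum, and Hsd11b1, which uses it to make active glucocorticoid, lay at log2 fold changes of -0.83 ± 0.23 and -0.58 ± 0.20 without overlap (adjusted p = 0.224 and 0.349). Neither was called by the DESeq2 Wald test on the 6 libraries. Per1, also on the list, is a clock gene, and Sgk1, H6pd, Slc45a3 and Pdk4 are genes that the study chose on these same livers, so their direction is not independent evidence. At 8 dpc the median of the list was -0.60, with 8 genes lower at an unadjusted p under 0.05, against 2.69% of all genes at that stage.

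Interferon-stimulated genes lay higher in AAV8-p21 livers 1 and 2. Of 30 tested genes, 27 lay above AAV8-null and 6 had an unadjusted p under 0.05, against 5.05% of all genes (median 0.70). Without AAV8-p21 liver 3, 18 reached that level with a median of 0.96. The number was 10 with the clock index as a covariate, 9 without AAV8-null liver 1 and 2 without AAV8-p21 liver 1. Usp18, which removes ISG15 from proteins, was at 3.21, 3.67 and 3.56 CPM in AAV8-null and at 8.77, 6.54 and 6.12 CPM in the AAV8-p21 livers (log2 fold change 1.03 ± 0.26, adjusted p = 0.159 in edgeR's quasi-likelihood test).
Ifih1 and Ddx58, the sensors of viral RNA MDA5 and RIG-I, had log2 fold changes of 0.79 ± 0.23 and 0.80 ± 0.27 without overlap (adjusted p = 0.247 and 0.329). In the list mean over all 30 genes, AAV8-p21 liver 3 lay at -0.25 and livers 1 and 2 at 0.95 and 0.75 on the log2 scale, with the AAV8-null livers between -0.15 and 0.27.
Of 27 complement genes, 19 lay above (median 0.16, or 0.30 without AAV8-p21 liver 3 and 0.03 without AAV8-null liver 3), and C1rb and C1s2 were the 2 that passed. Lbp, an acute-phase protein that binds bacterial lipopolysaccharide, was at 236, 255 and 271 CPM in AAV8-null and at 147, 157 and 179 CPM in the AAV8-p21 livers (log2 fold change -0.66 ± 0.16, adjusted p = 0.126). Over all 22 acute-phase genes, 10 lay above and 12 below, with 0 higher and 4 lower at an unadjusted p under 0.05, against 4.72% of all genes lower. The number lower was 6 without AAV8-null liver 1, and 1 without AAV8-null liver 3, AAV8-p21 liver 1 or AAV8-p21 liver 2.

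Markers of hepatocyte zones were compared because the study is about where in the lobule hepatocytes divide. Of 25 pericentral genes, 24 lay above AAV8-null, 4 at an unadjusted p under 0.05, against 5.05% of all genes (median 0.57). Without AAV8-p21 liver 3 or AAV8-null liver 1, 11 and 9 reached that level. The list mean was 0.90, 0.85 and 0.03 in AAV8-p21 livers 1, 2 and 3 and 0.46, -0.12 and -0.35 in AAV8-null livers, so AAV8-p21 liver 3 lay within the AAV8-null range. Slc1a2, a glutamate transporter of the pericentral ring, was at 464, 501 and 435 CPM in AAV8-null and at 682, 780 and 739 CPM in the AAV8-p21 livers, which do not overlap (log2 fold change 0.65 ± 0.22, adjusted p = 0.330 in edgeR's quasi-likelihood test). With the clock index as a covariate its log2 fold change was 0.24.
Lect2, a secreted hepatokine, and the Wnt antagonist Notum had log2 fold changes of 1.32 ± 0.39 and 0.88 ± 0.31 with groups that overlapped (adjusted p = 0.246 and 0.349). The 22 periportal genes split into 12 above and 10 below with a median of 0.09. At an unadjusted p under 0.05, 1 was higher and 1 lower, and without AAV8-p21 liver 3 2 were higher and 4 lower. Levels come from whole liver, in which fewer cells of a type and less RNA per cell cannot be told apart.

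Markers of other cells were low, and the summed levels of neutrophil and cholangiocyte markers did not overlap between the groups. All 3 neutrophil markers tested lay below AAV8-null with an unadjusted p under 0.05, against 4.72% of all genes (median -2.50), at a summed level over the 8 listed of 6.00 to 32.1 CPM in AAV8-null and 2.30 to 4.51 CPM in the AAV8-p21 livers. S100a8, a calcium-binding protein of granulocytes, was at 3.30, 1.75 and 8.10 CPM against 0.852, 0.945 and 0.510 CPM (log2 fold change -2.50 ± 0.57, adjusted p = 0.122 in edgeR's quasi-likelihood test). AAV8-null liver 3 was highest, and without it the median of the markers was -1.70 and 2 reached an unadjusted p under 0.05. The rest of the 8 listed had too few counts to be tested. The filter can keep a gene of such low level through the group in which it is high. The share of tested markers that lay lower therefore cannot be judged against that of all genes. At 8 dpc all 3 lay below as well, with a median of -1.88.
Of 5 tested cholangiocyte markers, 4 lay above AAV8-null and 2 at an unadjusted p under 0.05, against 5.05% of all genes. The 8 listed summed to 8.83 to 17.5 CPM in AAV8-null and 20.4 to 43.8 CPM in the AAV8-p21 livers, most of it Spp1, an osteopontin gene that other liver cells also express (14, 7.25 and 12.6 against 37.2, 39.5 and 15.9 CPM; log2 fold change 1.45 ± 0.35, adjusted p = 0.129). Kupffer cell, endothelial, stellate, T and NK, B and erythroid markers had 0 genes at an unadjusted p under 0.05, and their summed levels overlapped between the groups. Hepatocyte markers summed to 321710 to 441860 CPM in AAV8-null and 279261 to 311912 CPM in the AAV8-p21 livers, which do not overlap, and Alb made up most of both. The part of these cells in the other differences was not tested.

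Over the 34 lists, 3 of the 581 genes tested passed at 16 dpc, Ccnd1, C1rb and C1s2. No gene passed the test of a difference in the effect of the virus between 8 dpc and 16 dpc (0 of 12172 in edgeR's quasi-likelihood test, 376 at an unadjusted p under 0.05, and 0 with DESeq2 on all 15 libraries). Of the 9 genes that passed at 16 dpc, 8 had the same sign at 8 dpc, where the groups share no liver with those of 16 dpc, and 3 passed there. These 3 were C1rb, C1s2 and Pianp, which lie near each other on chromosome 6. Dnah11 was nearly silent at 8 dpc, so its sign there rests on few counts. The share of all genes with the same sign at both stages was not counted. Over the 12172 genes, which cannot be counted as replicates, the fold changes at both stages had a Pearson correlation of 0.412 and a Spearman correlation of 0.404.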

How the data were processed

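Whole liver RNA was sequenced with a stranded mRNA kit. According to the methods and the submitters' processing notes, the authors used cutadapt 1.14 for trimming, HISAT2 2.1.0 for alignment to mm10, and HTSeq 0.12.4 to count, per protein-coding gene, the reads that mapped uniquely; the deposited values are raw counts per gene. All 15 libraries (5 groups of 3) were fitted together in edgeR 4.0.16 (R 4.3.3; filterByExpr with a minimum count of 10, TMM, quasi-likelihood F-test, residual df 10, biological coefficient of variation 0.277), which left 12172 of 21702 genes. All adjusted p-values without another tool named are from edgeR's quasi-likelihood test with Benjamini-Hochberg adjustment over these genes. DESeq2 1.42.0 and limma 3.58.1 voom served as alternatives, beside other scalings and filters, edgeR on the 6 libraries alone, and leaving out each library; the clock index covariate was chosen after seeing the data. Plots were drawn with matplotlib 3.10.9. The scripts were tested on simulated counts.

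Totals of 13618701 to 17615185 counts per library set the precision. Intervals cover counting error only. Log2(CPM + 0.5) was used for list means and plots. Positions are from GENCODE M21, which matched 21588 of 21702 genes. The AAV8-p21 columns of 16 dpc could be tied to their group only, so they carry no replicate number. Named genes are the targeted gene and markers, all that passed, the 8 next by p in each direction with groups that did not overlap, up to 4 members per list, 4 genes the study names, and neighbours within 500 kb of those that passed. Ccne1, Ccnd2, Ccnd3, Cdkn1b, Rb1, Vnn1, Cyp4a10, Psmb9, Mt2, C1ra, C1s1, Naip6 and Nnt were named after their values were seen. Some genes that the rule picks are not reported here. Members and all 34 lists (625 genes, 581 tested) were chosen with earlier results of these data known.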

Additional observations from a re-analysis of the deposited data

Results flagged for a closer look

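For 3 genes every AAV8-p21 liver lay on one side of all AAV8-null livers at 16 dpc and on the other side at 8 dpc. The test of the difference between the stages, the interaction term of edgeR's quasi-likelihood model, gave an adjusted p of 1 for each. Atf4, the transcription factor of the amino acid response, had 111, 117 and 106 CPM in AAV8-null and 79.3, 97.5 and 82.4 CPM in AAV8-p21 livers of 16 dpc, with log2 fold changes of -0.37 at 16 dpc and 0.39 at 8 dpc, a difference of -0.76. Alb had log2 fold changes of -0.43 at 16 dpc and 0.47 at 8 dpc, a difference of -0.90. Pck2, the mitochondrial form of phosphoenolpyruvate carboxykinase, had 1.87, 2.08 and 2.40 CPM in AAV8-null and 3.07, 2.83 and 2.69 CPM in AAV8-p21 livers of 16 dpc, with log2 fold changes of 0.43 at 16 dpc and -0.94 at 8 dpc, a difference of 1.38.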

How the results depend on the processing

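The 9 genes that passed at 16 dpc were 9 with DESeq2 size factors, 21 with no filter, 3 where every library had to hold at least 10 counts, 106 with DESeq2 on 15 libraries, 122 with DESeq2 on the 6, 87 with limma voom, 5 with edgeR on the 6 (C1rb and Ccnd1 of the 9), 6 with the clock index as a covariate, and 3 to 35 with 1 library left out. The filter of at least 10 counts in every library left only 5 of the 9 to be tested, as it drops genes nearly silent in any liver. List members that passed were 3, then 6 with no filter, 1 with that stricter filter, 17 and 25 with DESeq2 on 15 and 6, 16 with voom, and 3 to 8 with 1 library left out. At 8 dpc 3 genes became 29 with DESeq2 on 15 libraries. Among 2350 values of 161 named genes, 2188 kept direction and side of the threshold, 38 lost the call, 102 gained it and 22 turned sign. With the clock index as a covariate the log2 fold changes were Ciart -0.023, Ppp1r3c 0.090, Per3 -0.41, Per2 -0.13, Nfil3 0.15, Npas2 2.65, Dnajb9 0.15, Hba-a1 0.12, Eng -0.12 and Hbb-bs 0.35. With voom, Sox9 was -0.35 and Timd4 0.050. With 1 library left out, Abcc3 ran from -0.0081 to 1.1, Sox9 from -0.30 to 0.92, Pecam1 from -0.49 to 0.11, Cd5l from -0.0062 to 0.63, Vsig4 from -0.017 to 0.38, Cd79a from -0.57 to 0.11, Hbb-bs from -0.38 to 0.042 and Jchain from -0.30 to 0.24. The cause was not tested. No paired analysis was possible because the AAV8-p21 columns of 16 dpc carry numbers that differ from those of the labels. Genes under about 1 CPM rest on few counts.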

Other observations

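Naip6, a sensor of the inflammasome chosen after its values were seen, had 27 counts in the 3 AAV8-null livers of 16 dpc together and 0 in the 3 AAV8-p21 livers. At 8 dpc the counts were 33 and 26, a ratio of 1.24 (95% exact interval 0.720 to 2.16, counting error only).
Genes of growth hormone and prolactin signalling lay below AAV8-null in 13 of 18 cases at 16 dpc. At an unadjusted p under 0.05, 1 was higher and 4 were lower, against 5.05% and 4.72% of all genes, and 2 were lower with any 1 of the 6 libraries left out. Socs2, a feedback inhibitor of that pathway, had 61.3, 54.2 and 59.4 CPM in AAV8-null and 36.6, 38.0 and 36.7 CPM in AAV8-p21 livers, without overlap (log2 fold change -0.65). Of 24 targets of CAR and PXR, the receptors for foreign compounds, 15 lay above and 3 were higher at that level (median 0.19). The number higher was 7 without AAV8-p21 liver 3, 5 without AAV8-null liver 1, 1 without AAV8-null liver 2 or AAV8-p21 liver 2, and 0 without AAV8-null liver 3, where 10 lay above with a median of -0.04. Of 24 genes of the ER stress and amino acid response 5 lay above and 1 was lower (median -0.36). Without AAV8-null liver 3, 14 lay above with a median of 0.14, and without AAV8-null liver 2, 4 were lower. With the clock index as a covariate 15 lay above, 7 higher and 2 lower, with a median of 0.64.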
